A study of Gallus gallus with 6 samples.

Results

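In the chicken neural tube, 44 of the 17108 genes of the count table lay under 1 CPM in the control and in the MEK1ca libraries, as a mean of each, and reached at least 3 CPM in both MEK1ca + HOXB8 libraries. CPM is the count of a gene scaled to a total of 1000000 in each library. The members were chosen by these values alone: the mean CPM of both pCIG libraries below 1, that of both MEK1ca libraries below 1, and 3 CPM or more in each MEK1ca + HOXB8 library. Their levels in the 3 conditions, and how far MEK1ca + HOXB8 lies above the others, are therefore a description, and calls made on them are printed only beside the share of all genes called. The choice limited the change from pCIG to MEK1ca, since both means were held under 1 CPM. As a ratio it was limited most for genes near 1 CPM. Genes that MEK1ca raised further were shut out. The choice did not use the position of the genes or the behaviour of the genes beside them. It used gene structure only through CPM, which rises with exonic length.

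RNA was taken from cells of the trunk neural tube of the chicken (Gallus gallus) embryo, the developing spinal cord. The cells had taken up plasmid by electroporation at around stage HH 11 and were sorted for GFP 18 h later. This stage is from the study's methods, while its figure legend for this experiment gives a slightly later one. The control received the empty vector pCIG at 2 µg/µl. MEK1ca received 1 µg/µl of a vector for constitutively active MEK1 with 1 µg/µl of empty pCIG, and MEK1ca + HOXB8 received 1 µg/µl of each expression vector. Both expression vectors carry the same GFP reporter, so that sorting does not show that a cell held both of them. The study cites earlier work for nearly complete co-transfection in this tissue. It assumed that all GFP cells of this condition expressed MEK1ca and HOXB8. Each of the 3 conditions had 2 libraries, and libraries with HOXB8 alone were not analysed here. The pCIG and MEK1ca libraries are labelled as a reanalysis of earlier samples and the MEK1ca + HOXB8 libraries are not, so that a difference in when libraries were made and the addition of HOXB8 cannot be told apart.

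MEK1 is the kinase that phosphorylates and activates ERK, and its constitutively active form keeps this branch of MAPK signalling on without an upstream signal. HOXB8 is a homeodomain transcription factor of the HOX family, whose members bind DNA together with PBX and MEIS cofactors and give cells of the neural tube their position along the head-to-tail axis. A gene that is nearly silent in one condition and read in another is of interest because a small absolute level can hold a large relative change. The table names genes by Ensembl identifier, and the files do not pair these with symbols, so that genes are described by their position in galGal4, their strand and the number of exon segments in their gene model. No role can be given for them, and the HOXB8 and MEK1 transcripts themselves and markers of neural or other cells could not be looked up.

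Library totals lay between 63637195 and 90460770 counts, and between 14054 and 14693 genes had a count. In MEK1ca replicate 2, even numbers made up 99.4% of the counts between 1 and 10, where the other libraries had 51.8% to 57.0%, and all 44 members had an even count in it. Results are therefore given without this library where it matters. The reads were amplified and carry no molecular identifiers, so that precision worked out from the size of a count alone covers counting error only. The standard errors below come from a fit that also takes in the spread between libraries. The smallest two-sided p of an exact permutation test of 2 libraries against 2 is 0.333, and the tests below therefore rest on a spread estimated over all genes.

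All 44 members had at least 1 count in each of the 6 libraries, so that none was without reads in pCIG or MEK1ca. Whether the lowest of these counts come from transcription of the gene was not tested. Their summed level was 23.3 and 18.6 CPM in the pCIG libraries, 22.8 and 22.2 CPM in the MEK1ca libraries, and 233.7 and 259.4 CPM in the MEK1ca + HOXB8 libraries. The pCIG and MEK1ca sums lay side by side, and both MEK1ca + HOXB8 sums lay far above them. In these bulk libraries a rise in few cells and a small rise in many cells cannot be told apart, nor can fewer cells of a type and less RNA per cell. The median member had 0.532 and 0.379 CPM in pCIG, 0.550 and 0.494 CPM in MEK1ca, and 4.40 and 4.97 CPM in MEK1ca + HOXB8. The lowest count of a member was 1 in a control library and 254 in a MEK1ca + HOXB8 library. Of the 44 members, 30 had a mean of 0.5 CPM or more in pCIG or MEK1ca, and 7 lay under 0.25 CPM in both.

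**Figure D1:**
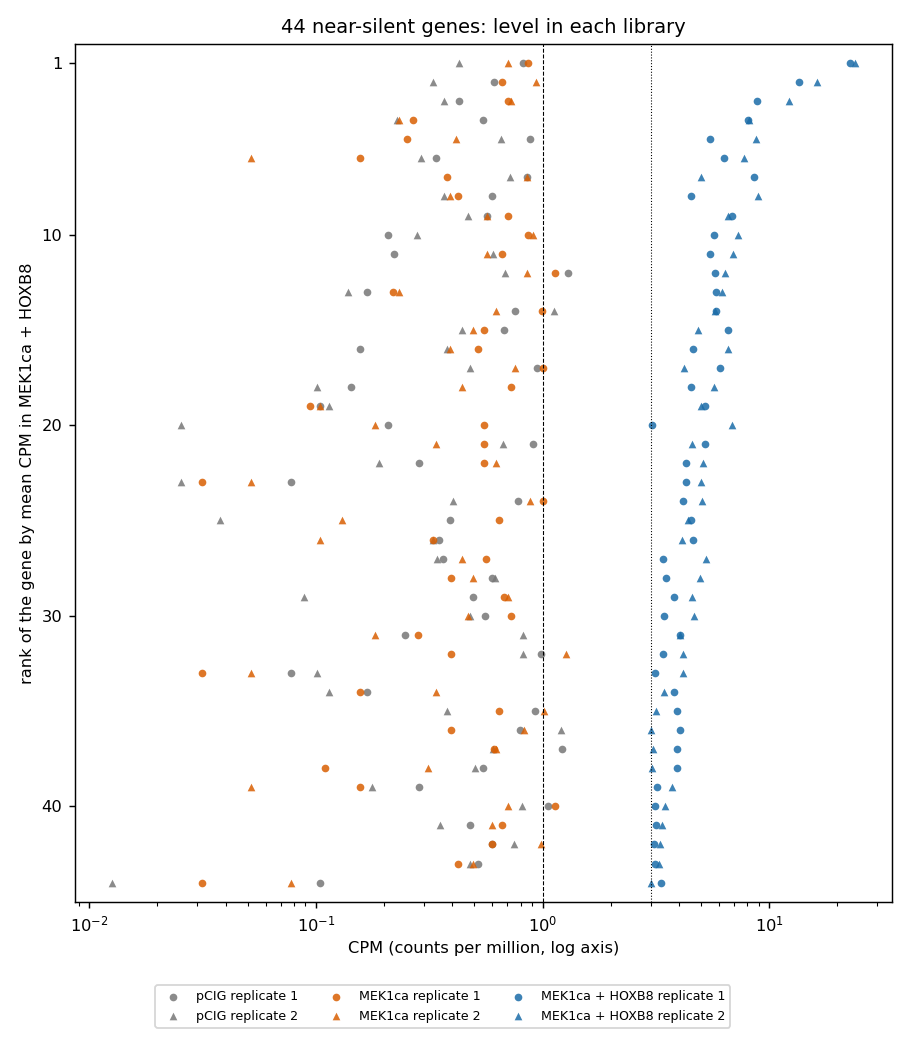
Level of each of the 44 members in each of the 6 libraries, in CPM on a log axis, with members in rows by their mean in MEK1ca + HOXB8. The dashed line marks 1 CPM, the limit for the means of pCIG and MEK1ca, and the dotted line marks 3 CPM, the limit for each MEK1ca + HOXB8 library. All blue points lie right of the dotted line, and the highest member stands at 22.6 and 24.0 CPM.

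The members were few among the genes that could have met the rule. Of 5819 genes with both means under 1 CPM, 1952 had no count in any library, 411 reached 1 CPM in both MEK1ca + HOXB8 libraries and 44 reached 3 CPM in both. The limit of 3 CPM was met in replicate 1 alone by 10 genes and in replicate 2 alone by 35. Of these 45 genes, 37 had 2 CPM or more in the other library, so that most lay close to the limit on the side where they missed it. No gene took the mirror pattern, with 3 CPM or more in all pCIG and MEK1ca libraries and a mean under 1 CPM in MEK1ca + HOXB8. This pattern is stricter than the rule, since more libraries had to reach 3 CPM, so that its count is not like for like with the 44. For MEK1ca, 11 genes had means under 1 CPM in pCIG and in MEK1ca + HOXB8 with 3 CPM or more in both MEK1ca libraries, and 9 genes were under 1 CPM in pCIG and at 3 CPM or more in all 4 libraries with MEK1ca.

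**Figure D2:**
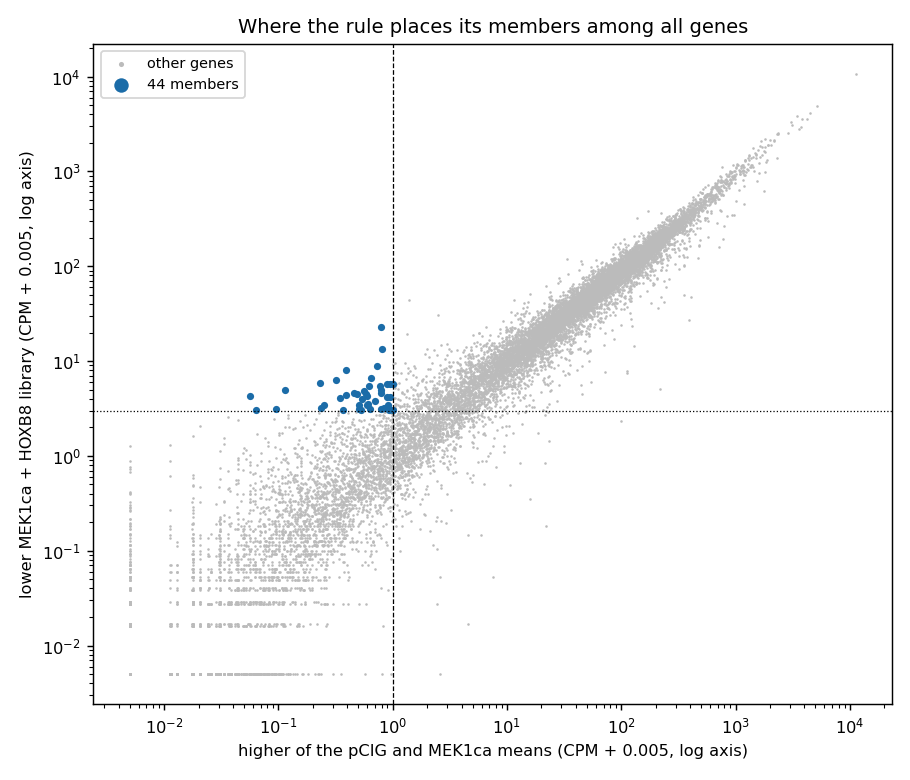
Each of the 17108 genes by the higher of its pCIG and MEK1ca means and by its lower MEK1ca + HOXB8 library, both in CPM plus 0.005 on log axes. The 44 members (blue) fill the corner left of 1 CPM (dashed) and above 3 CPM (dotted), and other genes (grey) continue up to and past both lines.

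The limits cut through a continuous range of values. The lowest MEK1ca + HOXB8 values inside were 3.01, 3.02 and 3.03 CPM, and the nearest genes outside had 2.996, 2.95 and 2.95 CPM. The highest pCIG means inside were 0.997, 0.991 and 0.939 CPM, against 1.01, 1.03 and 1.04 CPM outside. The highest MEK1ca means inside were 0.994, 0.944 and 0.916 CPM, against 1.01, 1.04 and 1.04 CPM outside. Another 21 genes missed the pCIG limit alone and 33 the MEK1ca limit alone. One of these, the 3-segment gene at chr5:16916859-16927489, exceeded all members in MEK1ca + HOXB8 with 48.5 and 44.3 CPM. It had 1.86 and 0.936 CPM in pCIG and 0.660 and 0.416 CPM in MEK1ca, and was left out by its pCIG mean of 1.40 CPM.

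The member with the highest CPM was ENSGALG00000011433, a gene of 19 exon segments on the minus strand at chr7:22032622-22037892. Its counts were 63 and 34 for pCIG, 55 and 54 for MEK1ca, and 2045 and 2023 for MEK1ca + HOXB8. The control replicates were further apart than those of MEK1ca, and the MEK1ca + HOXB8 libraries stood above all 4 of these at 22.6 and 24.0 CPM. The mean was 23.3 CPM ± 0.960 (SD, n = 2), which is 29.7 times the MEK1ca mean and 37.3 times the pCIG mean.

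On chromosome 17, the 7-segment gene at chr17:9429011-9444852 (minus strand) had 0.610 and 0.329 CPM in pCIG, 0.660 and 0.935 CPM in MEK1ca, and 13.5 and 16.3 CPM in MEK1ca + HOXB8. On chromosome 8, the 22-segment gene at chr8:6987423-7040612 (plus strand) had 0.429 and 0.367 CPM in pCIG, 0.707 and 0.727 CPM in MEK1ca, and 8.80 and 12.2 CPM in MEK1ca + HOXB8. These followed ENSGALG00000011433 in the order by CPM. In both, each MEK1ca library lay above each pCIG library, by a step that is small beside the one to MEK1ca + HOXB8. The fourth, a 4-segment gene at chr28:789271-792789 (minus strand), had 0.545 and 0.228 CPM in pCIG, 0.267 and 0.234 CPM in MEK1ca, and 8.07 and 8.10 CPM in MEK1ca + HOXB8. Its MEK1ca + HOXB8 libraries were the closest to each other among all members, at a ratio of 1.00.

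The next members differed more between the MEK1ca + HOXB8 libraries. The 15-segment gene at chr9:4063859-4088360 (plus strand) had 0.883 and 0.658 CPM in pCIG, 0.251 and 0.416 CPM in MEK1ca, and 5.47 and 8.77 CPM in MEK1ca + HOXB8. Another 15-segment gene, at chr1:77010-89016 (plus strand), had 0.338 and 0.291 CPM in pCIG, 0.157 and 0.0519 CPM in MEK1ca, and 6.35 and 7.77 CPM in MEK1ca + HOXB8. In both genes, each MEK1ca library lay below each pCIG library, so that the ratio depends on which of these serves as the base. For the gene of chromosome 1 it was 67.5 over the MEK1ca mean and 22.5 over the pCIG mean.

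Replicates did not differ in 1 direction only. The 17-segment gene at chr3:29337956-29424515 (plus strand) had 8.55 CPM in replicate 1 and 5.00 CPM in replicate 2 of MEK1ca + HOXB8. The 47-segment gene at chr11:630963-662588 (plus strand), which has the most exon segments of all members, had 4.50 and 8.92 CPM in the same libraries. The 4-segment gene at chr27:5109324-5111363 (plus strand) had 6.83 and 6.55 CPM. In all 3 genes the pCIG and MEK1ca libraries lay between 0.367 and 0.857 CPM, far below either MEK1ca + HOXB8 library.

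The remaining genes among the 12 highest were a 2-segment gene at chr12:1831238-1832110 (minus strand) with 5.73 and 7.31 CPM in MEK1ca + HOXB8, a 2-segment gene at chr10:5072623-5098236 (minus strand) with 5.48 and 6.91 CPM, and an 18-segment gene at chr9:710639-727787 (plus strand) with 5.77 and 6.40 CPM. The last of these was the member nearest to both upper limits at once, with means of 0.991 CPM in pCIG and 0.994 CPM in MEK1ca. Below these 12 the levels fell slowly, and 25 of the 44 members had a MEK1ca + HOXB8 mean under 5 CPM.

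Over all members, the higher MEK1ca + HOXB8 library exceeded the lower by a median of 1.21 times, with a range from 1.00 to 2.26 times. Replicate 2 was the higher library for 29 members and replicate 1 for 15. Only 5 members differed by over 1.5 times between these libraries. The widest gap was in a 2-segment gene of chromosome 25 (chr25:1144608-1151966, plus strand), with counts of 275 and 580 for MEK1ca + HOXB8, 16 and 2 for pCIG, and 35 and 14 for MEK1ca. From rank 4 of the order by CPM downwards, members next to each other differed by less than the median of 1.21 times between replicates, so that their order is not firm.

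**Figure D3:**
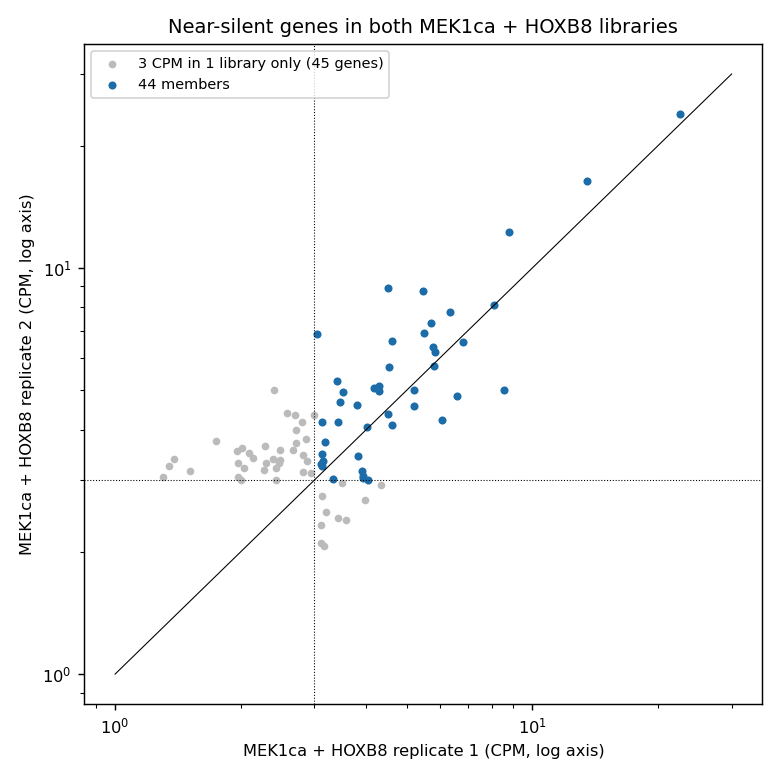
Genes with pCIG and MEK1ca means under 1 CPM that reached 3 CPM in a MEK1ca + HOXB8 library, by their CPM in replicate 1 and replicate 2 on log axes. The solid line marks equal levels and the dotted lines 3 CPM. The 44 members (blue) have 29 points above the solid line and 15 below it, and the 45 genes that passed in 1 library only (grey) lie outside the upper right field.

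CPM does not allow levels to be compared between genes of different length. In TPM, where counts are first divided by exonic length and then scaled to a total of 1000000, member levels in MEK1ca + HOXB8 ran from 1.33 to 28.2 TPM with a median of 4.12 TPM. The highest TPM belonged to the shortest member, a 3-segment gene of 330 exonic bases at chr19:5748570-5749048 (minus strand), with 28.2 TPM ± 1.87 (SD, n = 2). ENSGALG00000011433 followed with 17.3 TPM ± 1.16 and the gene at chr12:1831238-1832110 with 17.1 TPM ± 3.38. The latter levels differed by less than the spread between replicates. The 22-segment gene of chromosome 8, among the 3 highest by CPM, has 8904 exonic bases and came to 2.26 TPM ± 0.579.

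Members also differed in how large the step was. The ratio of the MEK1ca + HOXB8 mean to the higher of the pCIG and MEK1ca means ran from 3.53 to 90.0, with a median of 8.68, and was 10 or more for 20 members. The largest ratio was that of ENSGALG00000011582, a 12-segment gene at chr1:47112357-47141991 (plus strand), whose counts were 6 and 2 for pCIG, 2 and 4 for MEK1ca, and 389 and 421 for MEK1ca + HOXB8. With so few counts in the base, the ratio of 90.0 is known only roughly. The same holds for the 12-segment gene at chr4:3435786-3443978 (minus strand), with counts of 8 and 1 for pCIG, 2 and 6 for MEK1ca, and 301 and 255 for MEK1ca + HOXB8.

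The 5-segment gene at chr28:899423-901661 (minus strand) had counts of 8 and 9 for pCIG, 6 and 8 for MEK1ca, and 470 and 422 for MEK1ca + HOXB8. The 36-segment gene at chr18:8206967-8226132 (minus strand) had counts of 6 and 8 for pCIG, 2 and 4 for MEK1ca, and 284 and 353 for MEK1ca + HOXB8. These 4 genes were the members with the largest ratios, and none was among the 12 highest by CPM. At the other end, the 4-segment gene at chr5:49383395-49385807 (minus strand) had counts of 81 and 64 for pCIG, 72 and 54 for MEK1ca, and 283 and 294 for MEK1ca + HOXB8, a ratio of 3.55.

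For all 44 members, both MEK1ca + HOXB8 libraries lay above all pCIG and MEK1ca libraries. This pattern was fixed for members wholly by the rule, so that nothing is read from it. It was held by 32.6% of the 13582 genes with enough counts to be tested. The lower MEK1ca + HOXB8 library exceeded the highest of the other 4 libraries by between 2.50 and 55.2 times. Counts were also tested by the quasi-likelihood test of edgeR on all 6 libraries together, and a gene was called at an adjusted p (Benjamini-Hochberg, over all genes tested) of 0.01 or less. Against MEK1ca, 43 of 44 members were called higher in MEK1ca + HOXB8 and none lower, where 8.74% of all genes tested were higher and 7.99% lower. Against pCIG, 43 of 44 were called higher and none lower, where 8.91% of all genes tested were higher and 5.9% lower. Both comparisons share the MEK1ca + HOXB8 libraries and were used to choose the members, so that nothing is read from these counts. The median log2 fold change of members was 3.34 over MEK1ca and 3.59 over pCIG, where the median of all genes tested was 0.02 in both.

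The member not called in either comparison was a 6-segment gene at chr3:93337088-93359378 (plus strand). Its counts were 30 and 3 for pCIG, 41 and 10 for MEK1ca, and 407 and 369 for MEK1ca + HOXB8. Both MEK1ca + HOXB8 libraries stood above the other 4, while pCIG and MEK1ca overlapped. The replicates of pCIG and of MEK1ca were far apart, replicate 1 being the higher in both.

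Other near-silent genes also stood higher in MEK1ca + HOXB8. Of the 2249 other genes tested with both means under 1 CPM, 285 (12.7%) were called higher than in MEK1ca and 4 (0.178%) lower. Their median change was 0.89 on the log2 scale. These genes too were chosen for low values in pCIG and MEK1ca, the base of the comparison. Genes that passed the filter on low counts only through MEK1ca + HOXB8 had to be higher there.

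Between pCIG and MEK1ca the rule caps both means under 1 CPM, which also limits their ratio, most for members near 1 CPM. The log2 fold changes of members ran from -1.60 to 2.25. Another 33 genes missed the rule by their MEK1ca mean alone, so that genes with a rise past 1 CPM in MEK1ca were left out. The changes of members between pCIG and MEK1ca were therefore limited in part by the choice. Of the 44 members, 2 were called higher in MEK1ca than in pCIG, or 4.55%, where 4.26% of all genes tested were called higher. None was called lower (1.9% of all genes tested) by edgeR's quasi-likelihood test. At an unadjusted p of 0.05 or less, 5 members were higher (13.8% of all genes tested) and 4 lower (12.4%). DESeq2 called 2 higher (6.92% of all genes tested by it) and none lower (4.63%) at an adjusted p of 0.01. It gave 6 higher (12.9%) and 5 lower (11.1%) at an unadjusted p of 0.05. The median log2 fold change of members was 0.01, against -0.01 for all genes tested. Both MEK1ca libraries lay above both pCIG libraries for 12 members (26.5% of all genes tested) and below both for 7 (31.9%). The share of members called higher was near that of all genes tested, but the choice used the same values, so that nothing is read from it. Some members could pass the filter on low counts through MEK1ca + HOXB8 alone. One is ENSGALG00000011582, with counts of 6 and 2 for pCIG and 2 and 4 for MEK1ca. Such members could hardly be called between pCIG and MEK1ca. Of the 2249 other tested genes with both means under 1 CPM, 13 (0.578%) were called higher. The difference between these shares was not tested, since members were chosen by the same values.

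The first of the 2 called members was the 2-segment gene at chr12:1831238-1832110, with 0.208 and 0.278 CPM in pCIG and 0.864 and 0.909 CPM in MEK1ca. These pCIG and MEK1ca libraries did not overlap. The MEK1ca + HOXB8 libraries had 5.73 and 7.31 CPM, and their place above the others was fixed by the rule. The log2 fold change of MEK1ca over pCIG was 1.88 ± 0.34 (SE), with an edgeR adjusted p of 0.0036. The other was a 5-segment gene at chr6:2108594-2115926 (plus strand), with 0.143 and 0.101 CPM in pCIG, 0.723 and 0.442 CPM in MEK1ca, and 4.52 and 5.69 CPM in MEK1ca + HOXB8. Here too the pCIG and MEK1ca libraries did not overlap, and the step up to MEK1ca + HOXB8 was fixed by the rule. Its log2 fold change of MEK1ca over pCIG was 2.25 ± 0.44 (SE), with an edgeR adjusted p of 0.00587.

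Both calls depended on the libraries in the fit. In a fit of the 4 pCIG and MEK1ca libraries alone, the edgeR adjusted p was 0.0364 for the gene of chromosome 12 and 0.0445 for that of chromosome 6, so that neither was called. Without pCIG replicate 1 it was 0.0343 and 0.0267, and without pCIG replicate 2 it was 0.0178 and 0.0595. In the fit without pCIG replicate 1 another member was called in their place, the 6-segment gene at chr5:38491459-38495653 (minus strand), whose pCIG libraries had 0.493 and 0.0885 CPM. Without MEK1ca replicate 1 it was 0.00887 and 0.0342, so that only the first was called. Without MEK1ca replicate 2, the library of even counts, both were called, at 0.00874 and 0.00212. At the wider threshold of 0.05, edgeR called 3 members higher (7.53% of all genes tested) and none lower (5.29%). The added one was the 4-segment gene at chr9:4185849-4189691 (minus strand), with 0.286 and 0.190 CPM in pCIG and 0.550 and 0.623 CPM in MEK1ca.

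Of the members that lay lower in MEK1ca than in pCIG, those with the smallest adjusted p were both among the 12 highest by CPM. The gene at chr1:77010-89016 had a log2 fold change of -1.60 ± 0.49 (SE) with an edgeR adjusted p of 0.0551. The gene at chr9:4063859-4088360 had a log2 fold change of -1.17 ± 0.38 (SE) with an edgeR adjusted p of 0.072. Their pCIG and MEK1ca libraries did not overlap, but neither gene passed the test.

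**Figure D4:**
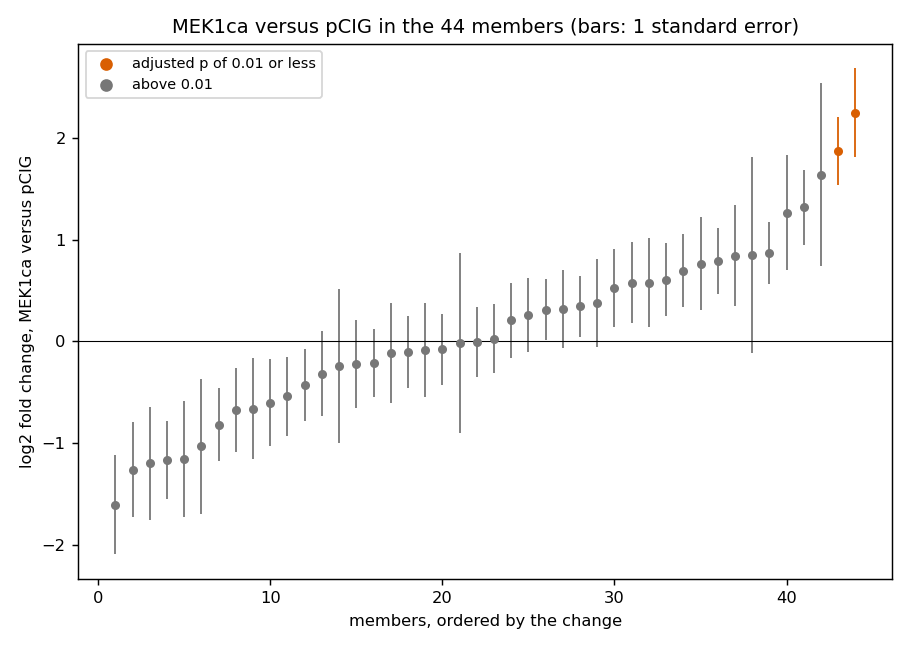
Log2 fold change of MEK1ca over pCIG for the 44 members in order of the change, with bars of 1 standard error. Orange points mark the 2 members at an edgeR adjusted p of 0.01 or less, and the points run from -1.60 to 2.25 around a median of 0.01.

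The gene models of the members were set beside those of all genes tested and of the 2249 other tested genes under 1 CPM in pCIG and MEK1ca. Their median exonic length was 2465.5 bases, against 2171 in all genes tested and 1404 in the other near-silent genes tested. They had a median of 8 exon segments (range 2 to 47), against 9 in all genes tested and 5 in the other near-silent ones. No member had a single exon segment, whereas 6.01% of all genes tested and 17.3% of the other near-silent ones did. Since CPM rises with length, a limit of 3 CPM favours longer genes. With the same limits in TPM, 52 genes met the rule and 15 of them were members.

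The members lay on 21 chromosomes, 21 of them on the plus strand and 23 on the minus strand. Chicken chromosomes range from a few large macrochromosomes to many small, gene-dense microchromosomes. Chromosomes 1 to 5 held 17 members (38.6%), against 44.6% of all genes tested, and the sex chromosomes held none, against 4.93%. Only 1 member (2.27%) overlapped another gene of the table, against 15.3% of genes tested. Chromosome 28, a microchromosome, held 5 members (11.4%), against 1.80% of genes tested.

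Of the 5 members on chromosome 28, 4 lay within 450.3 kb, between positions 782331 and 1232619. The first was a 3-segment gene at chr28:782331-785843 (plus strand), with 0.558 and 0.481 CPM in pCIG, 0.723 and 0.468 CPM in MEK1ca, and 3.45 and 4.68 CPM in MEK1ca + HOXB8. The next began 3427 bases on and was the 4-segment gene at chr28:789271-792789 described above, on the opposite strand. These were the only members within 50 kb of each other. The others in the stretch were the 5-segment gene at chr28:899423-901661 and a 4-segment gene at chr28:1229980-1232619 (plus strand), with 6.07 and 4.22 CPM in MEK1ca + HOXB8. The fifth member of the chromosome, a 7-segment gene at chr28:3759501-3762347 (minus strand), lay outside the stretch with 5.80 and 5.75 CPM.

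The same stretch held other genes that stood higher in MEK1ca + HOXB8 than in MEK1ca. It was picked after the positions of the members were seen, so its counts are a description. Of its 37 other genes tested, 11 (29.7%) were called higher by edgeR's quasi-likelihood test, against 8.45% of all genes tested outside the members. None was called lower at an adjusted p of 0.01, with 4 lower at an unadjusted p of 0.05 and 2 lower by DESeq2. The log2 fold changes of the 11 genes ran from 0.39 to 5.84, and 6 of them were under 1 CPM in pCIG and MEK1ca. Such genes may pass the filter on low counts only through MEK1ca + HOXB8, so that no weight is put on these 6. Both shares, 29.7% and 8.45%, include genes under 1 CPM in pCIG and MEK1ca. The part that such genes make up was not matched, so that the shares are not strictly like for like. Some of the 11 are also counted among the neighbours of members below. With any 1 of the MEK1ca or MEK1ca + HOXB8 libraries left out, fewer genes of the stretch were called higher, and so were fewer of all genes tested.

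The highest of these changes was in a gene at chr28:1127912-1139249, which missed the rule narrowly with 3.50 and 2.95 CPM in MEK1ca + HOXB8. It had 0.0519 and 0.0632 CPM in pCIG and 0.110 and 0 CPM in MEK1ca. A gene well above the limits, at chr28:1171971-1179236, had a mean of 31.9 CPM in MEK1ca and 108.5 CPM in MEK1ca + HOXB8 (log2 fold change of 1.66 ± 0.11, SE; edgeR adjusted p of 8.7e-06). Over chromosome 28 as a whole, 31 of 240 tested genes outside the members were called higher (12.9%) and 12 lower (5.0%).

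The nearest genes on each side of the members, together with the gene that overlapped one, were 87 in number once 2 that are members themselves were left out, and 80 of them had enough counts to be tested. In MEK1ca + HOXB8 against MEK1ca, 15 of these 80 (18.8%) were called higher by edgeR's quasi-likelihood test and 4 (5.0%) lower. Of all genes tested, 8.74% were called higher and 7.99% lower, and of the neighbours of other near-silent genes 9.03% and 7.78%. Among neighbours at 1 CPM or more in pCIG or MEK1ca, 9 of 70 (12.9%) were called higher, against 7.61% of all such genes. The 15 include 6 of the 10 tested neighbours under 1 CPM. Of the other near-silent genes tested, 12.7% were called higher, and such genes may pass the filter on low counts only through MEK1ca + HOXB8, so that no weight is put on the 6. Leaving out any 1 of the MEK1ca or MEK1ca + HOXB8 libraries lowered the number of neighbours called higher, and also that of all genes tested. Such a fit leaves 1 library in a group, and whether the count rests on particular libraries was not tested.

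The raised neighbours belonged to 14 of the 44 members. On the strand of the member 9 of 50 tested neighbours were raised, and on the other strand 6 of 30. Of the 15, 10 lay within 5 kb, where 43 neighbours had been tested. Beside the short member of chromosome 19, a gene 74 bases away on the same strand (chr19:5749123-5751483) had 1.56 and 1.56 CPM in pCIG, 1.74 and 1.01 CPM in MEK1ca, and 8.38 and 10.3 CPM in MEK1ca + HOXB8. Its libraries with HOXB8 lay above all others, with a log2 fold change over MEK1ca of 2.66 ± 0.29 (SE) and an edgeR adjusted p of 0.000122. At this distance, whether both models belong to 1 transcript was not tested.

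On chromosome 28, a gene 202 bases from the member at chr28:899423-901661, on the other strand, had means of 0.524 CPM in MEK1ca and 2.73 CPM in MEK1ca + HOXB8. On chromosome 18, a gene 1579 bases from the 36-segment member, on the same strand, had means of 0.128 and 2.25 CPM. Both neighbours were thus near-silent genes themselves that stayed under the limit of 3 CPM in at least 1 library.

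On chromosome 27, the neighbour at chr27:5102844-5105307 had 6.55 and 6.46 CPM in pCIG, 3.06 and 2.48 CPM in MEK1ca, and 11.2 and 9.62 CPM in MEK1ca + HOXB8. This neighbour was lowest in MEK1ca and highest in MEK1ca + HOXB8, whereas the member beside it had about the same level in pCIG and MEK1ca. On chromosome 25, the neighbour of the most variable member was called lower, with means of 2.62 CPM in MEK1ca and 0.533 CPM in MEK1ca + HOXB8 (log2 fold change of -2.40 ± 0.36, SE; edgeR adjusted p of 0.000712).

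The member that overlapped another gene was a 20-segment gene at chr1:45551218-45563377 (minus strand), with 1.22 and 0.607 CPM in pCIG, 0.613 and 0.623 CPM in MEK1ca, and 3.92 and 3.07 CPM in MEK1ca + HOXB8. The overlapping gene on the plus strand, at chr1:45540152-45553445, had 5.50 and 5.18 CPM in MEK1ca and 13.9 and 12.7 CPM in MEK1ca + HOXB8. Whether strand was used in counting is not given in the sources used here. Without it, reads from the part that both genes cover, between 45551218 and 45553445, cannot be told apart.

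**Figure D5:**
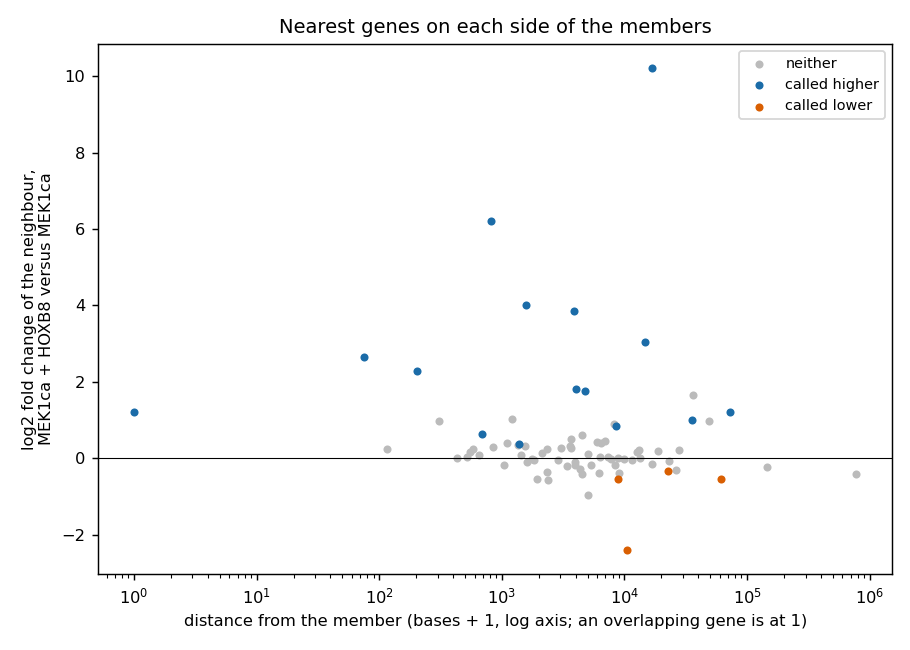
Log2 fold change of MEK1ca + HOXB8 over MEK1ca for the 80 tested neighbours of the members, by distance in bases plus 1 on a log axis. Blue points are the 15 neighbours called higher and orange points the 4 called lower at an edgeR adjusted p of 0.01 or less. The topmost point has no count in either MEK1ca library, so that its height depends on the fit and is not a measured fold.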

How the data were processed

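Gene counts of GFP-sorted neural tube cells were analysed in 6 libraries, 2 for each of pCIG, MEK1ca and MEK1ca + HOXB8, grouped by their labels. Per the submitters' notes, alignment was by Subread on galGal4 and counting by featureCounts. The authors deposited raw counts per gene together with exonic lengths and exon coordinates. Program versions, use of strand and the handling of reads that align more than once are not given in the sources used here. Tables of comparisons that the authors also deposited hold fold changes and p-values and were not used. The study describes independent RNA samples from pools of embryos. What separates replicates beyond that is not given, and p-values rest on the spread between these libraries, estimated with information from all genes.

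CPM was computed from column sums and TPM from counts and exonic length. Of 17108 genes, 13582 passed edgeR's filterByExpr by condition. Counts were scaled by TMM, and the quasi-likelihood F test of edgeR with robust estimation was run on all 6 libraries (R 4.3.3, edgeR 4.0.16, limma 3.58.1), with Benjamini-Hochberg adjustment over all genes and a threshold of 0.01. A standard error was taken as the absolute log2 fold change divided by the root of F. DESeq2 1.42.0 was an alternative, as were other scalings, filters and limits, a fit of 4 libraries, replicate number as a term and leaving out each library. The test was tested on simulated data. Tables and figures were made with matplotlib 3.10.9, pandas 2.3.3 and numpy 2.4.6 in Python 3.11.15.

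The members and the gene lists were chosen with earlier results of these data known. Genes described were the 12 members with the highest CPM, members called between MEK1ca and pCIG, the 3 genes on each side of each limit, members within 50 kb of another, and the 5 other genes most like the members. Other genes were picked after their values were seen. Of the Ensembl identifiers, 0 matched a symbol in the RefSeq table at hand, so that lists of pathways, transcription factors and cell type markers, and the levels of HOXB8 and MEK1, were not tested. No sequences are shown.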

Additional observations from a re-analysis of the deposited data

How the results depend on the processing

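The number of genes that met the rule followed its limits. It was 14 with an upper limit of 0.5 CPM and 151 with 2 CPM, and 12 with a lower limit of 5 CPM and 120 with 2 CPM. Leaving out 1 library gave 43 to 79 genes, the highest without MEK1ca + HOXB8 replicate 1, when 1 library had to pass in place of 2. Scaling by TMM kept 37 members and scaling by DESeq2 size factors 35, with no other genes added. Without MEK1ca replicate 2, whose counts are nearly all even, 44 genes met the rule and 40 of them were members. In MEK1ca versus pCIG, the fit of 4 libraries called 0 members higher in place of 2, and leaving out 1 library gave 0 to 2. Over all genes, 578 higher and 258 lower became 927 and 620 with DESeq2, 1023 and 719 at an adjusted p of 0.05, and 279 to 592 and 77 to 288 without 1 library. In MEK1ca + HOXB8 versus MEK1ca, 1187 higher became 2307 at 0.05 and 535 to 780 without 1 library. The 1085 lower became 1716 with DESeq2, 646 with library size alone, 2061 at 0.05 and 564 to 948 without 1 library. In MEK1ca + HOXB8 versus pCIG, 1210 higher became 2234 at 0.05 and 451 to 667 without 1 library. The 801 lower became 1395 with DESeq2, 497 with library size alone, 1750 at 0.05 and 251 to 697 without 1 library. Neighbours called higher were 23 at 0.05 and 9 to 13 without 1 library. Raised genes of the chromosome 28 stretch were 5 to 6 without 1 library, alternatives that were chosen after seeing the data. Members with another within 100 kb were 4 in place of 2 within 50 kb. Beyond a fit with fewer libraries, the cause of these changes was not tested. The log2 fold changes of the 12 highest members over MEK1ca ran from 2.30 to 6.95 in 132 values over the alternatives, and 8 of these values moved by over 1 standard error. These members were chosen as high in MEK1ca + HOXB8 and low in MEK1ca, so that values above 0 are a description. Low counts in pCIG and MEK1ca limit what can be seen of the change by MEK1ca.

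Deviations of libraries with the same number correlated by 0.13 between pCIG and MEK1ca, -0.03 between MEK1ca and MEK1ca + HOXB8 and -0.11 between pCIG and MEK1ca + HOXB8, so that the numbers were not taken to pair the samples. With replicate number as a block, 2 members were called higher and 0 lower in MEK1ca versus pCIG, where 606 of all genes tested were higher and 315 lower. In MEK1ca + HOXB8, 43 members were higher over MEK1ca (1159 of all genes tested) and 44 over pCIG (1170 of all genes tested). The rule all but fixed these member counts, so that nothing is read from them. In the same fit 14 neighbours were raised. With the MEK1ca + HOXB8 numbers crossed in the block, chosen after seeing the data, 1529 genes were higher and 1242 lower than in pCIG.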

Other observations

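The 5 genes outside the rule whose log2 CPM (plus 0.5) followed the mean of the members most closely over the 6 libraries had Pearson correlations of 0.9988 to 0.9992, which describe only a low level in 4 libraries and a higher one in 2. All lay lower than the members. The gene at chr12:3086644-3089660 had no count in pCIG, 0.0314 and 0.0260 CPM in MEK1ca, and 1.55 and 1.68 CPM in MEK1ca + HOXB8. The gene at chr9:15135292-15143951 had no count in pCIG or MEK1ca and 1.27 and 1.29 CPM in MEK1ca + HOXB8. The other 3, on chromosomes 3 and Z, also had no count in pCIG or MEK1ca and between 0.210 and 0.782 CPM in MEK1ca + HOXB8. They share with each other that their replicates nearly coincide.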
